A study of Mus musculus with 63 samples.

Results

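The mitochondrially encoded transcripts were taken as every gene of the deposited count table whose symbol starts with mt-, which gave 37 of 23429 genes. They comprised the 13 protein-coding genes, the 2 ribosomal RNA genes and 22 of the table's genes for transfer RNAs. The symbol mt-Tq stood in 2 places and mt-Tw in none, so that 36 distinct symbols were counted. The first mt-Tq entry followed the deposited FPKM (fragments scaled to gene length and library size) of mt-Tq. Their log2 values correlated at 0.991, against 0.189 with those of mt-Tw. The second entry correlated at 0.849 with mt-Tw and at 0.374 with mt-Tq. It was 0 or above 0 together with mt-Tw in 63 of 63 libraries, and with mt-Tq in 61. It is called the second mt-Tq entry here, since the count table does not give its identity.

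Mitochondrial DNA is a small circle carried in many copies per cell, and cardiomyocytes hold a large store of it. Both strands are transcribed from the control region as long polycistronic RNAs, from which the transfer RNAs are cut out so that the messengers and ribosomal RNAs lying between them are released. The messengers encode core subunits of respiratory complexes I, III and IV and of ATP synthase, and all other proteins that copy, transcribe, process and translate this genome are encoded in the nucleus. Most of the messengers and the ribosomal RNAs receive short poly(A) tails, whereas mature transfer RNAs are not usually polyadenylated.

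RNA from mouse hearts on the FVB/N background was sequenced in 63 libraries of 14 groups, and the study asked how mitochondrial quality control by Parkin bears on the maturation of cardiac mitochondria around birth. Mfn2AA mice overexpressed human Mfn2 carrying the T111A and S442A substitutions, Mfn2wt mice overexpressed human Mfn2 without them, tetoff mice were the labelled tet-off control, and ntg mice were nontransgenic. At P1 (postnatal day 1) there were 3 Mfn2AA, 4 Mfn2wt, 5 tetoff and 6 ntg libraries from whole hearts, at P21 there were 6, 6, 5 and 6 from left ventricle, and at 5 weeks 4, 4, 3 and 4 from left ventricle. All libraries of an age were prepared together, and new libraries from the total RNA of ntg hearts, 3 of P21 and 4 of 5 weeks, were prepared with the P1 libraries, the 5-week heart 5wk_ntg_15933-3 having no library of its own batch here. The labels give no treatment and do not name the promoter that drives the transgene, and one protocol for all samples speaks of ventricular apexes although the P1 tissue is labelled whole heart. Replicates of a group often share the number in their titles, as all 6 P21 Mfn2AA libraries do, and what the number marks is not given. At no age does Mfn2AA share one with Mfn2wt, so that genotype and title number cannot be told apart there. Nothing says that replicates were independent litters, and p-values measure the spread between these libraries.

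Total counts per library ranged from 4557894 to 24339146. The human transgene in the deposited FPKM table lay between 1878 and 2438 FPKM in P1 Mfn2AA and between 264 and 494 in P1 Mfn2wt libraries. It lay between 1834 and 8051 in P21 Mfn2AA, between 1405 and 1796 in P21 Mfn2wt, between 336 and 851 in 5-week Mfn2AA and between 1232 and 1745 in 5-week Mfn2wt libraries. The ntg and tetoff libraries held 1.79 to 190, apart from P21_tetoff_10534-3 with 362, so that this library reached the range of P1 Mfn2wt. Ventricular cardiomyocyte markers were above 1 CPM (counts scaled to library size by the trimmed mean of M values, TMM) in every group for 10 of 10 genes. Libraries stood apart in some groups. The nuclear ribosomal precursor Rn45s took 34.4% and 17.6% of counts in the 5-week Mfn2wt libraries 5wk_Mfn2wt_15926-4 and 5wk_Mfn2wt_15931-9, and 8.06% and 6.56% in the other pair. The P1 ntg library P1_ntg_10582-4 was high in 11 of 22 mitochondrial measures, and the 5-week Mfn2AA library 5wk_Mfn2AA_10287-8 in 9.

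The 13 messengers together took 1.67% to 10.3% of a library's counts, the 2 ribosomal RNAs 0.187% to 7.64% and the transfer RNAs 0.00297% to 0.0241%. Reads in transfer RNA genes from poly(A)-selected libraries cannot be told apart from reads of uncut precursors or adjoining messengers. The genes adjoin or overlap, and the libraries were not strand-specific, so that reads over shared bases cannot be told apart either. Nor can reads of a gene be told apart from reads of RNA of the opposite strand, as over mt-Nd6, mt-Te and mt-Ts1. The overlaps of the messengers are shown because they limit which pairs can be read as separate measurements. The sequences are from GENCODE transcripts on GRCm38 and are printed as the plus strand, with capitals marking the bases that lie in both genes. mt-Atp8 and mt-Atp6, which encode 2 subunits of ATP synthase, share 43 bases within chrM:7912-7984. mt-Nd4l and mt-Nd4, subunits of complex I, share 7 bases within chrM:10152-10188. mt-Nd5 and mt-Nd6, also of complex I, run on opposite strands and share 14 bases within chrM:13537-13580.
mt-Atp8/mt-Atp6 overlap: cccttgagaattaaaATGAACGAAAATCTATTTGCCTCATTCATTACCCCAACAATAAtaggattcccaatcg
mt-Nd4l/mt-Nd4 overlap: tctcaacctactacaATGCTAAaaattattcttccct
mt-Nd5/mt-Nd6 overlap: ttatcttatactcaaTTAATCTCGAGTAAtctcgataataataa

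The 5 transfer RNA genes whose counts the results turn on are printed below in the sense of the gene, with capitals marking the longest run of 1 base. mt-Te, mt-Ts1, mt-Tm and mt-Tl1, for glutamic acid, the first serine, methionine and the first leucine transfer RNA, had the greatest mean CPM over all libraries. mt-Tr, for arginine, holds a run of 8 A, the longest run of 1 base among the 22 transfer RNAs, where the next longest is 6 in mt-Th. The genes lie at chrM:14071-14139 (mt-Te, minus strand), chrM:6870-6938 (mt-Ts1, minus strand), chrM:3845-3913 (mt-Tm, plus strand), chrM:2676-2750 (mt-Tl1, plus strand) and chrM:9808-9875 (mt-Tr, plus strand).
mt-Te: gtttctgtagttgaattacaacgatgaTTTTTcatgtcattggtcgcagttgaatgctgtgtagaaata
mt-Ts1: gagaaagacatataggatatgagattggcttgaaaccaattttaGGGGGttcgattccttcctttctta
mt-Tm: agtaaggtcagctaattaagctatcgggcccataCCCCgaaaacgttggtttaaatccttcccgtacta
mt-Tl1: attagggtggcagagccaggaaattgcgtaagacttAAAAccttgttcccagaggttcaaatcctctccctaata
mt-Tr: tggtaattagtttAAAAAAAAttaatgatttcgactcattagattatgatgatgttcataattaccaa

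The first question was whether the messengers differed by genotype within an age. At 5 weeks the Mfn2AA hearts held less of every mitochondrial messenger than either the Mfn2wt or the tetoff hearts. At P21 they held less than the Mfn2wt hearts but not detectably less than the tetoff hearts, and at P1 no messenger passed the test against either control. The messengers' share of counts was 2.64% ± 1.01 (SD, n = 4) in 5-week Mfn2AA, 5.55% ± 1.44 (SD, n = 4) in Mfn2wt, 7.21% ± 2.82 (SD, n = 3) in tetoff and 7.59% ± 0.625 (SD, n = 4) in ntg hearts. The 4 Mfn2AA libraries took 3.96%, 1.67%, 2.88% and 2.05%, and the Mfn2wt libraries 4.97%, 4.19%, 5.46% and 7.55%, so that these groups did not overlap. With Rn45s removed from the total, the means were 2.82% ± 1.14 (SD, n = 4) and 6.71% ± 1.55 (SD, n = 4). In bulk tissue, fewer cardiomyocytes and less mitochondrial RNA per cardiomyocyte cannot be told apart.

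**Figure D1:**
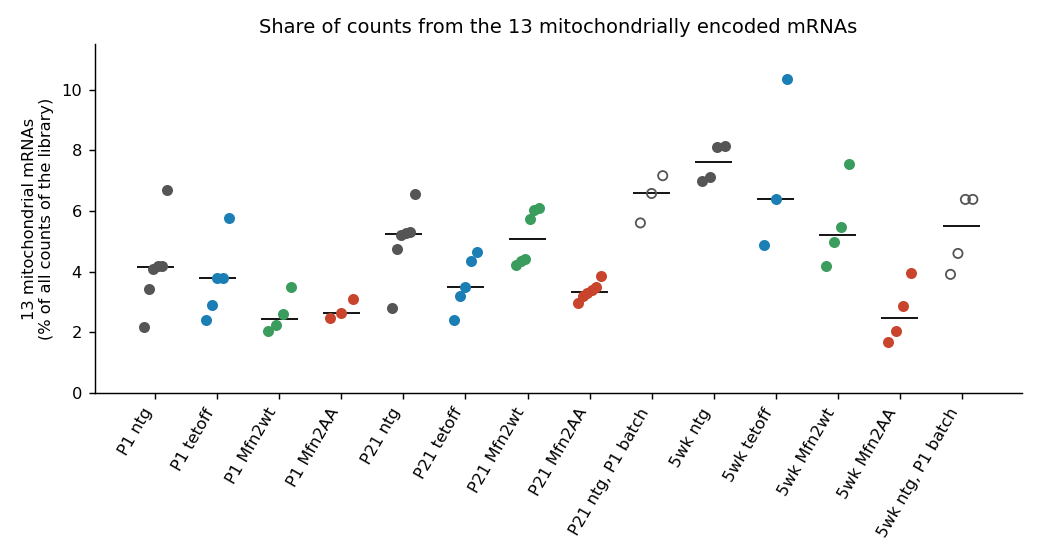
Share of all counts of a library taken by the 13 mitochondrial messengers (y axis, percent) in each of the 63 libraries by group (x axis), with a bar at the group median and open circles for the ntg libraries prepared in the P1 batch. The 5-week Mfn2AA libraries, at 1.67% to 3.96%, lie below all other 5-week libraries of the same batch, and the 6 P21 Mfn2AA libraries lie below all P21 Mfn2wt libraries but within the range of P21 tetoff.

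All 13 messengers were lower in 5-week Mfn2AA than in Mfn2wt hearts by edgeR's quasi-likelihood test with Benjamini-Hochberg adjustment over all genes, where 18.2% of all genes tested were called lower. Their median log2 difference was −1.77 against 0.03 over all genes, with a range from −1.98 for mt-Atp6 to −1.14 for mt-Nd6. Against tetoff all 13 were again lower, with a median of −1.83 and a range from −2.09 to −1.45, where 16.1% of all genes were called lower. The Mfn2AA libraries enter both comparisons.

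Complex I takes electrons from NADH, and its 7 mitochondrial subunits gave similar differences. mt-Nd5 was counted at 2301, 777, 1005 and 947 CPM in the 5-week Mfn2AA libraries and at 4346, 1906, 2724 and 3762 CPM in the Mfn2wt libraries. One Mfn2AA library, 5wk_Mfn2AA_10287-8, lay above the lowest Mfn2wt library, and the other 3 lay below all of them. The fitted log2 difference of mt-Nd5 was −1.34 ± 0.36 (SE, adjusted p = 0.00747 by edgeR). mt-Nd2 had −1.86 ± 0.46 and mt-Nd1 −1.33 ± 0.32. mt-Nd6, the only messenger encoded on the opposite strand, had the least difference, −1.14 ± 0.43 with an edgeR adjusted p of 0.0452, and it did not pass the test under 9 of 16 alternative settings.

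mt-Cytb, the mitochondrial subunit of complex III, was counted at 4849, 1431, 1927 and 1695 CPM in the Mfn2AA libraries and at 11770, 3827, 7998 and 11064 CPM in the Mfn2wt libraries. The tetoff libraries held 6861, 4485 and 15383 CPM. Here too only Mfn2AA library 5wk_Mfn2AA_10287-8 reached the range of the controls, and the log2 differences were −1.81 ± 0.45 against Mfn2wt and −1.84 ± 0.48 against tetoff.

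The catalytic core of cytochrome c oxidase is built from mt-Co1, mt-Co2 and mt-Co3. mt-Co1 separated the groups with no overlap. Its counts were 6468, 6094, 9229 and 6186 CPM in Mfn2AA, 16946, 14127, 20464 and 15700 CPM in Mfn2wt, 20326, 17705 and 21647 CPM in tetoff, and 22456, 26548, 20822 and 16339 CPM in ntg hearts. The log2 difference was −1.27 ± 0.19 (edgeR adjusted p = 0.000111) against Mfn2wt and −1.5 ± 0.20 (edgeR adjusted p = 5.99e-05) against tetoff. The Mfn2AA library that was highest for mt-Nd5, mt-Cytb and mt-Atp6 was not the highest for mt-Co1. mt-Co2 and mt-Co3 had log2 differences of −1.32 ± 0.29 and −1.69 ± 0.35 against Mfn2wt.

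Of the ATP synthase subunits, mt-Atp6 had a wide spread among Mfn2AA libraries. It was counted at 8063, 1452, 1797 and 1558 CPM in Mfn2AA and at 18666, 5564, 11719 and 15077 CPM in Mfn2wt hearts. The first of those Mfn2AA libraries exceeded the lowest Mfn2wt library, while the other 3 lay well under it. The log2 difference of mt-Atp6 was −1.98 ± 0.60 against Mfn2wt and −1.83 ± 0.63 against tetoff, and that of mt-Atp8 was −1.93 ± 0.45 and −1.96 ± 0.47. The mt-Atp6 call was lost against tetoff under 5 of 14 alternatives, namely leaving out 5wk_Mfn2AA_10289-7, 5wk_Mfn2AA_10289-8, 5wk_Mfn2AA_10289-9 or 5wk_tetoff_10289-3 and fitting only the 2 groups. Against Mfn2wt it was lost without both libraries rich in Rn45s (−1.67, edgeR adjusted p = 0.105).

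**Figure D2:**
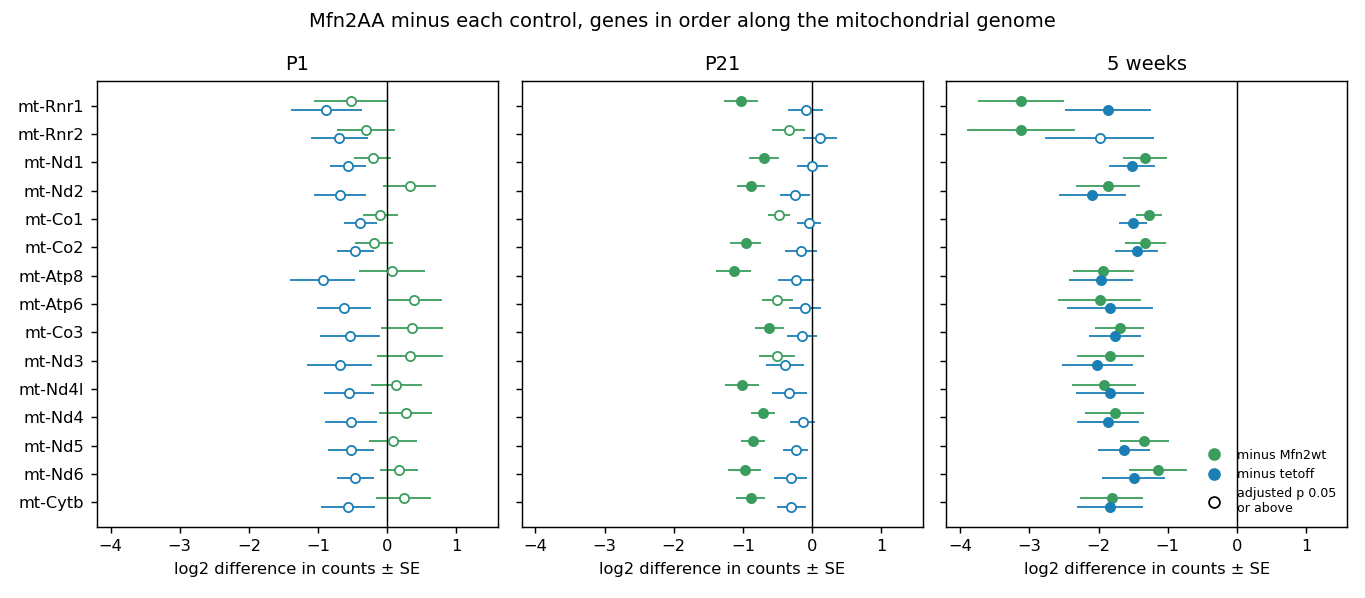
Fitted log2 difference in counts ± SE (x axis) of the 15 messengers and ribosomal RNAs in their order along the mitochondrial genome (y axis), for Mfn2AA minus Mfn2wt (green) and minus tetoff (blue) at each age, with open points where the edgeR adjusted p is 0.05 or above. At 5 weeks every messenger is filled and below −1 in both comparisons, whereas at P21 filled points are seen only against Mfn2wt and at P1 nowhere.

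The 2 ribosomal RNAs of the mitochondrial ribosome fell by 3.13 ± 0.62 (mt-Rnr1) and 3.12 ± 0.79 (mt-Rnr2) on the log2 scale against Mfn2wt. mt-Rnr2 was counted at 14164, 3861, 4077 and 3206 CPM in Mfn2AA, at 145170, 8356, 44510 and 20875 CPM in Mfn2wt, and at 16829, 12636 and 46243 CPM in tetoff libraries. The 2 highest of those Mfn2wt values belong to the libraries with the most Rn45s, and the part of ribosomal RNA carry-over in the result was not tested. Without both libraries, an alternative chosen after the data were seen, mt-Rnr1 stayed lower at −1.56 with an edgeR adjusted p of 0.0233, and mt-Rnr2 gave −1.20 with an adjusted p of 0.209. The messengers called lower against Mfn2wt then numbered 8 of 13, with a median of −1.48. Against tetoff, where Rn45s took 5.19% to 6.4% of counts, mt-Rnr1 was lower by −1.86 ± 0.62, a call lost under 5 of 14 alternatives, and mt-Rnr2 gave −1.99 ± 0.79 with an edgeR adjusted p of 0.0624. Leaving out the tetoff library 5wk_tetoff_10289-3, which had the largest messenger share at 10.3%, left 8 of 13 messengers called. For the fits without some libraries the share of all genes called is not given.

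Among the transfer RNA genes, 18 of 22 were abundant enough to be tested at 5 weeks, and 14 were lower in Mfn2AA than in Mfn2wt hearts, none being higher. Their differences ran from −5.01 for mt-Tm to −1.10 for mt-Ts1. mt-Tm was counted at 6.79, 1.03, 1.63 and 1.80 CPM in Mfn2AA and at 282, 8.92, 51.9 and 21.4 CPM in Mfn2wt libraries, which did not overlap, and its log2 difference was −5.01 ± 0.99. The value of 282 CPM was from the library with most Rn45s, and without both such libraries the difference was −2.41 with an edgeR adjusted p of 0.0222. The others called were mt-Ta, mt-Tc, mt-Te, mt-Tg, mt-Th, mt-Tl1, mt-Tl2, mt-Tn, mt-Tr, mt-Ty and both mt-Tq entries. Of these, mt-Tc, mt-Tl1, mt-Ty and both mt-Tq entries were not called without the libraries rich in Rn45s, and mt-Tl1 (−2.61 ± 0.82) lost its call under 6 of 16 alternatives in all. Against tetoff 9 were lower, with mt-Tm at −2.69 ± 0.97 and mt-Te at −1.20 ± 0.40, which lost their calls under 5 and 7 of 14 alternatives. mt-Tf, mt-Tv, mt-Td and mt-Tt did not pass the filter on low counts at this age and were not tested.

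Neither transgenic control differed detectably from ntg hearts at 5 weeks, and Mfn2wt and tetoff were not compared with each other. None of the 13 messengers was called between Mfn2wt and ntg, where 0.388% of genes were called, or between tetoff and ntg, where 0.117% were called, and none reached an unadjusted p under 0.05 in either. The median log2 difference was −0.15 and 0.02 in turn. mt-Co1 had −0.36 ± 0.19 in Mfn2wt against ntg. The ribosomal RNAs were 1.18 and 1.39 higher on the log2 scale in Mfn2wt than in ntg hearts without passing the test.

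At P21 the Mfn2AA hearts held less of most messengers than the Mfn2wt hearts. The test called 10 of 13 lower with a median log2 difference of −0.85, against −0.01 over all genes, of which 6.19% were called lower. mt-Atp6 (−0.50 ± 0.22, edgeR adjusted p = 0.136), mt-Co1 (−0.48 ± 0.16, adjusted p = 0.0540) and mt-Nd3 (−0.51 ± 0.26, adjusted p = 0.197) did not pass. The messengers' share of counts was 3.37% ± 0.295 (SD, n = 6) in Mfn2AA, 5.14% ± 0.895 (SD, n = 6) in Mfn2wt, 3.61% ± 0.894 (SD, n = 5) in tetoff and 4.99% ± 1.23 (SD, n = 6) in ntg hearts. The Mfn2AA group lay as low as the tetoff group. The lowest tetoff library was P21_tetoff_10534-3 at 2.42%, the one with 362 FPKM of the transgene, and it shares its title number with the Mfn2AA libraries. The other tetoff libraries held 3.18% to 4.63%.

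For complex I at P21, mt-Nd5 had a lowest, median and highest count of 1267, 1508 and 1673 CPM in Mfn2AA and of 2079, 2845 and 3252 CPM in Mfn2wt hearts. The groups did not overlap, and the log2 difference was −0.85 ± 0.17 with an edgeR adjusted p of 0.00167. The tetoff libraries held 1357, 1657, 1918, 2155 and 1779 CPM and overlapped the Mfn2AA range. mt-Nd4l, mt-Nd6, mt-Nd2, mt-Nd4 and mt-Nd1 were lower in Mfn2AA than in Mfn2wt hearts by −1.01, −0.97, −0.88, −0.71 and −0.70.

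mt-Cytb at P21 ranged from 2040 over a median of 2357 to 2696 CPM in Mfn2AA, and from 3222 over 4375 to 5689 CPM in Mfn2wt hearts. Its log2 difference was −0.89 ± 0.21 with no overlap between the groups. Of the ATP synthase subunits, mt-Atp8 fell by 1.13 ± 0.25 on the log2 scale, from a median of 784 CPM in Mfn2wt to 362 CPM in Mfn2AA. mt-Co2 (−0.96 ± 0.22) and mt-Co3 (−0.62 ± 0.20) of cytochrome c oxidase were lower, whereas the mt-Co1 counts of 10481, 12424 and 15987 CPM (lowest, median and highest) in Mfn2AA overlapped those of Mfn2wt, which began at 15211 CPM.

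mt-Rnr1, the small ribosomal RNA, was also lower at P21, by −1.03 ± 0.24, with 396 to 444 CPM in Mfn2AA and 561 to 1003 CPM in Mfn2wt hearts. mt-Rnr2 gave −0.34 ± 0.23 and did not pass. The test called 7 of 18 transfer RNAs lower, namely mt-Te, mt-Th, mt-Ti, mt-Tl1, mt-Tl2, mt-Ts1 and mt-Ts2. mt-Tl1 had −1.59 ± 0.24, with at most 1.32 CPM in the Mfn2AA libraries and at least 2.11 CPM in the Mfn2wt libraries. The 8 messengers mt-Atp8, mt-Co2, mt-Cytb, mt-Nd2, mt-Nd4, mt-Nd4l, mt-Nd5 and mt-Nd6 were called under all 19 alternatives, whereas mt-Co3 lost its call under 14, mt-Nd1 under 8 and the transfer RNA mt-Ts1 under 12.

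The P21 calls were made against Mfn2wt, and Mfn2wt was not compared with tetoff directly. Against tetoff none of the 13 messengers was called, with a median of −0.23, none at an unadjusted p under 0.05, and 0.574% of all genes called. mt-Co1 gave −0.05 ± 0.17 and mt-Cytb −0.30 ± 0.22 in that comparison. Between tetoff and ntg, where 0.478% of genes were called lower, mt-Nd5 (−0.72 ± 0.18, edgeR adjusted p = 0.0367) was the only messenger called, while 11 of 13 had an unadjusted p under 0.05, all 13 estimates were negative and the median was −0.56. That call was lost under 12 of 18 alternatives. Without the ntg library P21_ntg_10547-2, the lowest of its group, 6 messengers were called, and the share of all genes called there is not given. Of the transfer RNAs only mt-Tl1 (−1.11 ± 0.25) was lower in tetoff than in ntg hearts. Mfn2wt and ntg did not differ detectably at P21, with 0 of 13 messengers called, none at an unadjusted p under 0.05, a median of 0.04 and 0.604% of all genes called.

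At P1 no mitochondrial gene was called in any genotype comparison. Against Mfn2wt the median log2 difference of the messengers in Mfn2AA was 0.17, with 0 of 13 at an unadjusted p under 0.05 and 0.125% of all genes called. Against tetoff it was −0.55, with 1 of 13 at an unadjusted p under 0.05 and 0.00732% of all genes called. Mfn2wt against ntg gave negative estimates for all 13 messengers with a median of −0.92, 11 of them at an unadjusted p under 0.05 and a smallest edgeR adjusted p of 0.0993, where 0.146% of genes were called. Tetoff against ntg had a median of −0.12, 0 of 13 at an unadjusted p under 0.05 and 1.3% of all genes called.

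The spread among the P1 ntg libraries was wide. mt-Cytb ranged over 1235, 1420 and 2110 CPM in Mfn2AA, 1076, 1139, 1148 and 1961 CPM in Mfn2wt, and from 1178 over a median of 2184 to 4830 CPM in the 6 ntg libraries. The ntg maximum was library P1_ntg_10582-4, which was high in 11 of 22 mitochondrial measures. The groups overlapped throughout. The messengers' share was 2.73% ± 0.321 (SD, n = 3) in Mfn2AA, 2.60% ± 0.653 (SD, n = 4) in Mfn2wt, 3.73% ± 1.28 (SD, n = 5) in tetoff and 4.12% ± 1.48 (SD, n = 6) in ntg hearts.

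Whether the Mfn2AA minus Mfn2wt difference changed with age was tested by an interaction term, in which the library batch changes with age and cannot be told apart from it. From P1 to P21 none of the messengers was called, with a median change of −0.98, 7 of 13 at an unadjusted p under 0.05 and 0.308% of all genes called. From P21 to 5 weeks, where 18.3% of genes were called lower, mt-Atp6 (−1.51 ± 0.57, edgeR adjusted p = 0.0321) and mt-Co1 (−0.82 ± 0.28, adjusted p = 0.0169) were called, as were both ribosomal RNAs and the transfer RNAs mt-Tc, mt-Tm, mt-Tr and the second mt-Tq entry. The median messenger change was −0.93. None of these mitochondrial genes was called when both Mfn2wt libraries rich in Rn45s were left out. The messengers called numbered 9 without the Mfn2AA library 5wk_Mfn2AA_10287-8 and 6 without the Mfn2wt library 5wk_Mfn2wt_15930-8. For these fits the share of all genes called is not given.

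The nuclear genes that serve this genome were read from 5 lists. At 5 weeks genes of all 5 lists were lower in Mfn2AA than in Mfn2wt hearts. Of the genes for mitochondrial DNA transcription and replication 8 of 16 were lower and 1 higher (median −0.46), of those for RNA processing and stability 12 of 22 lower (−0.62), of the translation factors 11 of 18 lower (−0.66), of the regulators of biogenesis 6 of 12 lower (−0.38), and of the nuclear subunits of complexes I, III, IV and V 29 of 32 lower (−0.96), with a median of 0.03 over all genes. Of all genes 18.2% were called lower in that comparison. Against tetoff the numbers lower were 7, 9, 10, 5 and 29, where 16.1% of all genes were. At P21 against Mfn2wt they were 0, 4, 1, 1 and 1, with none higher in any list, where 6.19% of all genes were called lower. The P21 counts of the translation factors and nuclear subunits, 1 of 18 and 1 of 32, were under that share.

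Several named members may be set beside the messengers. Peo1, the mitochondrial DNA helicase, had a log2 difference of −1.43 ± 0.13 at 5 weeks against Mfn2wt hearts, and Tfb2m, the transcription initiation factor of the mitochondrial RNA polymerase, −1.04 ± 0.17. Tfam, which packs and activates mitochondrial DNA, had −0.47 ± 0.21 and did not pass (edgeR adjusted p = 0.0880). Fastk, a mitochondrial RNA-binding protein, had −1.44 ± 0.19, and Hsd17b10, a subunit of the RNase P complex that cuts the 5′ ends of transfer RNAs, −1.0 ± 0.10. Tufm, the mitochondrial elongation factor Tu, had −1.02 ± 0.12.

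Ppargc1a, a coactivator of mitochondrial biogenesis, had −1.06 ± 0.23 at 5 weeks and −0.52 ± 0.15 at P21, both called lower against Mfn2wt. Cox6a2 and Cox7a1, muscle isoforms of nuclear cytochrome c oxidase subunits, had −1.68 ± 0.31 and −1.51 ± 0.22 at 5 weeks. The P21 calls in the RNA processing list were Fastkd2 (−0.70 ± 0.18), Lrpprc (−0.53 ± 0.16), Ptcd3 (−0.35 ± 0.10) and Grsf1 (−0.23 ± 0.08). Lrpprc, which stabilises polyadenylated mitochondrial messengers, gave −0.64 ± 0.35 at 5 weeks and did not pass there.

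Markers of cell types moved with genotype at 5 weeks as well, in a comparison of Mfn2AA with Mfn2wt in which 20.3% of all genes passed upward and 18.2% downward. The summed CPM of the ventricular cardiomyocyte markers was 54620 to 75444 in Mfn2AA and 112430 to 132840 in Mfn2wt hearts, with 8 of 10 markers lower. Fibroblast markers summed to 12257 to 18346 CPM against 1926 to 2975 CPM (6 of 7 higher), and macrophage markers to 669 to 1910 CPM against 382 to 516 CPM (8 of 8 higher). Atrial markers summed to 7308 to 14468 CPM against 1852 to 3575 CPM (1 of 7 higher and 1 lower), most of it Nppa with a mean of 9478 CPM in Mfn2AA, against 1.55 CPM for Bmp10. Endothelial markers summed to 725 to 1140 CPM against 871 to 971 CPM (1 of 6 higher). Of the adipocyte markers 1 of 5 tested was higher, with Fabp4 the most abundant and Lep near 0. The erythroid list rested on Alas2 alone, with Hba-a1 at 0, and was not called against Mfn2wt. At P21 the ventricular markers overlapped, at 77283 to 113290 CPM in Mfn2AA and 91234 to 111220 CPM in Mfn2wt hearts, with 3 of 10 lower, 5 of 8 macrophage markers higher, 4 of 5 adipocyte, 2 of 7 atrial and 0 of 7 fibroblast markers higher, and 1 of 6 endothelial markers lower, where 7.52% of all genes were called higher and 6.19% lower. The P21 atrial sums ran from 56.9 to 7726 CPM in Mfn2AA and from 76.0 to 1052 CPM in Mfn2wt libraries. They ran from 131 to 9938 CPM in tetoff and from 103 to 7075 CPM in ntg libraries. P21_Mfn2AA_10534-4, P21_Mfn2AA_10534-5 and P21_Mfn2AA_10534-8 held 4308, 7726 and 5011 CPM. The highest ntg sum was that of P21_ntg_10547-2. The part of cell and tissue composition in the messenger result was not tested.

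The second question was how the messengers changed with age in ntg hearts, read from the 13 libraries prepared in the P1 batch. mt-Co1 and mt-Co2 of cytochrome c oxidase and 4 messengers of complex I were higher at P21 than at P1 in this batch, and the estimates of all 13 messengers were positive. Of these 6, only mt-Co1 and mt-Nd4 were also called with each age in its own batch. The test called 6 of 13 messengers higher at P21 than at P1, with a median of 0.71, where 29% of all genes were called higher and 28.5% lower. These were mt-Co1 (1.27 ± 0.21), mt-Nd6 (0.91 ± 0.25), mt-Nd4 (0.84 ± 0.31), mt-Co2 (0.77 ± 0.20), mt-Nd5 (0.76 ± 0.26) and mt-Nd1 (0.51 ± 0.21), and mt-Rnr2 was higher by 1.23 ± 0.32. mt-Co1 ran from 6283 over a median of 9680 to 15438 CPM at P1 and was 26117, 20742 and 25582 CPM at P21, with no overlap. Age cannot be told apart here from whole heart against left ventricle.

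Those counts depended on single libraries. Without the P1 ntg library P1_ntg_10582-4 the messengers called at P21 numbered 11, and without the P21 repeat P21_ntg_10547-1 or P21_ntg_10547-5 they numbered 3 and 2. From P21 to 5 weeks only mt-Nd6 was called (−1.37, lower), with 10.8% of genes called lower, and the median was −0.29. From P1 to 5 weeks mt-Co1 (0.97), mt-Nd4 (0.84) and mt-Co2 (0.65) were higher. These 3 of 13 were under the share of all genes, of which 32.8% were called higher and 34.9% lower. Without the P1 library P1_ntg_10582-4 the number of messengers called was 8. The share of all genes called is not given for the fits without a library, so their counts cannot be read against it.

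The same ages taken each from its own batch gave another picture. From P1 to P21 the messengers called higher were 4 of 13 with a median of 0.50, where 30.1% of genes were called higher and 29.7% lower. The count was thus near the share of all genes. The 4 messengers were mt-Co1 (0.84), mt-Atp6 (0.81), mt-Cytb (0.75) and mt-Nd4 (0.66). mt-Co2 (0.04), mt-Nd1 (0.01), mt-Nd6 (0.27) and mt-Nd5 (0.47), called within the P1 batch, did not pass here. From P21 to 5 weeks 6 were higher with a median of 0.80, the opposite sign to that within the P1 batch, where 16.5% of genes were called higher and 13.4% lower. mt-Atp6 led these at 2.02, and mt-Nd6, called lower within the P1 batch, had 0.70. From P1 to 5 weeks 11 were higher with a median of 1.14, where 33.6% of genes were called higher and 33.5% lower. Both ribosomal RNAs were higher at 5 weeks in these comparisons, by 1.57 against P21 for each. Within the P1 batch they gave −0.55 and 0.02 at 5 weeks against P21, and neither was called. On the same RNA both were called lower in the P1 batch at 5 weeks (−1.48 and −1.29), where 5.52% of genes were. At P21 both were called higher there (0.65 and 0.80), where 7.39% of genes were, and each P21 call was lost under 3 of 5 alternatives.

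Libraries made from the same RNA in both batches show the size of the batch difference directly. From 3 ntg hearts of 5 weeks, 9 of 13 messengers were lower in the P1 batch than in their own, with the heart as a block and a median of −1.42, where 5.52% of genes were called lower and 4.68% higher. mt-Atp6 counts of the hearts 5wk_ntg_15927-6, 5wk_ntg_15928-7 and 5wk_ntg_15935-10 were 11656, 19384 and 20298 CPM in their own batch and 2107, 1584 and 4142 CPM in the P1 batch. Each heart lost most of its mt-Atp6 counts, and the log2 difference was −2.77 ± 0.26. mt-Nd2 (−2.27 ± 0.19), mt-Nd4l (−2.24 ± 0.20), mt-Atp8 (−1.89 ± 0.18), mt-Cytb (−1.69 ± 0.22), mt-Nd6 (−1.61 ± 0.17), mt-Nd3 (−1.42 ± 0.25), mt-Nd4 (−1.37 ± 0.18) and mt-Nd5 (−0.76 ± 0.14) were lower too.

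The messengers did not move as a block. mt-Nd1 gave 0.04 ± 0.13, mt-Co1 −0.18 ± 0.20, mt-Co2 0.38 ± 0.12 and mt-Co3 −0.90 ± 0.30 in the same 5-week hearts, and none of these passed. mt-Nd1 counts of the 3 hearts were 6177, 4672 and 5964 CPM in their own batch and 5879, 5345 and 5757 CPM in the P1 batch. From 3 ntg hearts of P21 the direction was the other way. The test called 6 messengers higher in the P1 batch and none lower, with a median of 0.53, where 7.39% of genes were called higher and 6.73% lower. mt-Nd6 (1.08 ± 0.13), mt-Co2 (0.86 ± 0.15) and mt-Atp8 (0.77 ± 0.23) led, and mt-Atp6 gave −0.10 ± 0.22. The P21 count fell to 1 without heart P21_ntg_10547-1, rose to 13 without heart P21_ntg_10547-5, and was 0 without the heart as a block. For these fits the share of all genes called is not given.

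**Figure D3:**
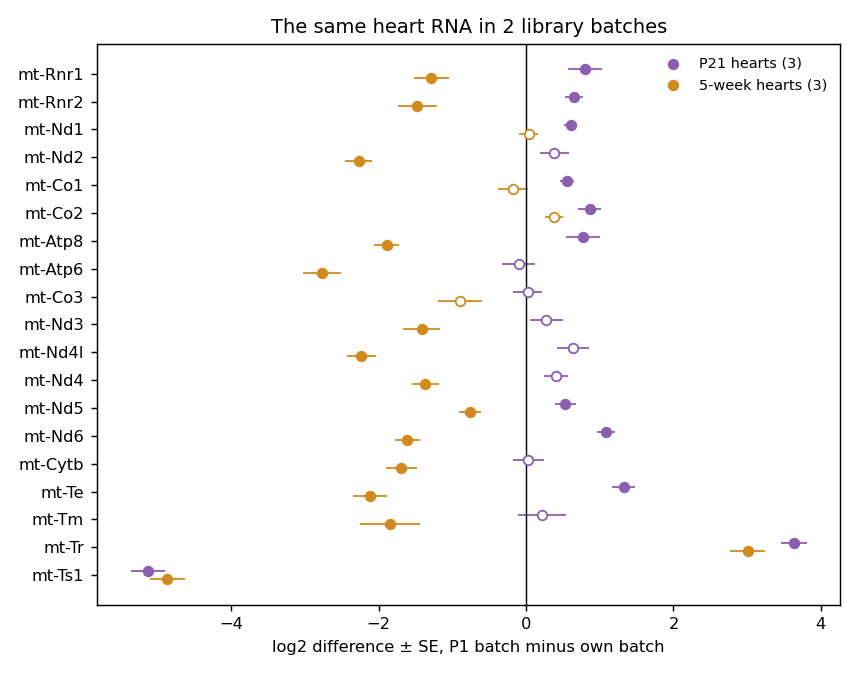
Fitted log2 difference in counts ± SE (x axis), P1 batch minus own batch, between libraries of the same heart RNA for messengers, ribosomal RNAs and 4 transfer RNAs (y axis), at P21 (purple, 3 hearts) and at 5 weeks (orange, 3 hearts), with open points where the edgeR adjusted p is 0.05 or above. For the messengers and ribosomal RNAs the called points lie to the right at P21 and to the left at 5 weeks, while mt-Tr lies right and mt-Ts1 left at both ages.

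The order of the messengers per length differed between batches in the same way. Per kilobase of gene, the 5-week ntg libraries held mt-Atp6 first at 22703 ± 7479 CPM per kb (SD, n = 4), mt-Co1 at 13943 ± 2733 and mt-Nd4l at 13015 ± 2715, with mt-Nd3 last at 1417 ± 440. The first 3 overlapped within their spread. In the 4 ntg libraries of the same age in the P1 batch, mt-Co2 (12665 ± 2032) and mt-Co1 (12622 ± 2227) stood first and did not differ beyond their spread, and mt-Atp6 came after mt-Nd1 (6133 ± 498) at 4320 ± 1889. At P21 the first 3 were mt-Co1 (11533 ± 2266), mt-Co2 (8220 ± 2640) and mt-Atp6 (5699 ± 2546), and at P1 mt-Co2 (7921 ± 2142), mt-Co1 (6370 ± 2043) and mt-Nd1 (5176 ± 1681), each overlapping the next within its spread. mt-Nd3 was last in all of these groups.

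The ratio of mt-Atp6 to mt-Co1 per length summarises this order. Its median was 0.491 in P1 ntg, 0.433 in P21 ntg and 1.59 in 5-week ntg libraries of their own batches, and 0.297 and 0.331 in the P21 and 5-week libraries of the P1 batch. At 5 weeks it was 1.74 in Mfn2wt, where it ran from 0.894 to 2.50, and 0.556 in Mfn2AA, where it ran from 0.442 to 2.83. These groups overlapped through library 5wk_Mfn2AA_10287-8. The 5-week tetoff libraries lay between them, with a median of 0.933 and a range from 0.619 to 2.25.

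**Figure D4:**
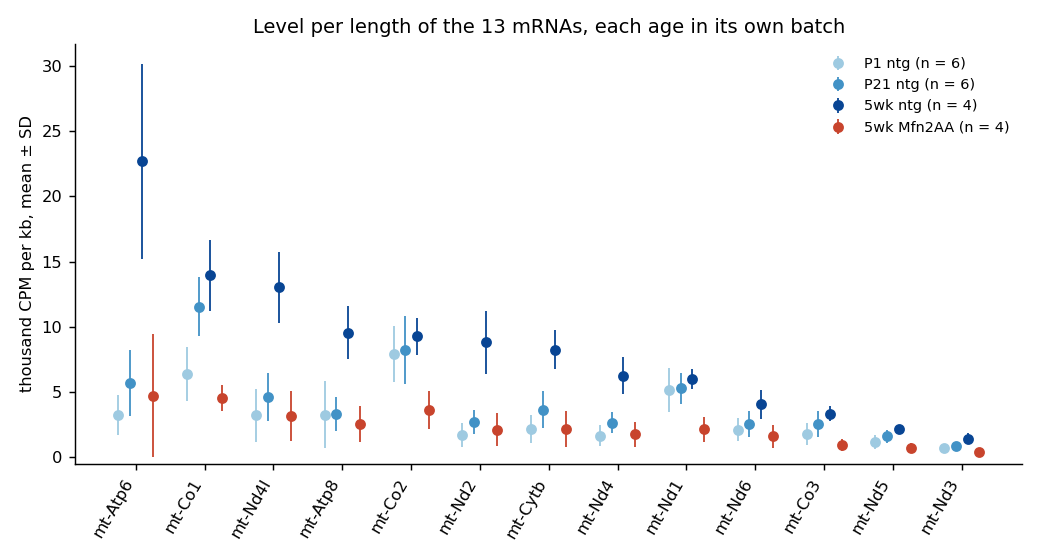
CPM per kilobase of gene (y axis in units of 1000, mean ± SD) of the 13 messengers (x axis) in ntg libraries of each age in its own batch and in 5-week Mfn2AA libraries. The 5-week ntg means exceed the P21 ntg means most for mt-Atp6, while the 5-week Mfn2AA means lie below the 5-week ntg means for every messenger.

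The authors' FPKM values gave the same shift with a different estimator. Mean mt-Atp6 was 27255 ± 8177 FPKM (SD, n = 4) in 5-week ntg libraries and 6357 ± 2712 (SD, n = 4) in those of the P1 batch, whereas mt-Co1 was 12883 ± 2792 and 13533 ± 2370. FPKM exceeded CPM per kilobase for the short messengers, by a median of 8.74 times for mt-Atp8, 2.95 times for mt-Nd4l and 2.28 times for mt-Nd3, and by 1.07 to 1.58 times for the others. The order by FPKM thus differed, and mt-Atp6 first and mt-Nd3 last hold for CPM per kilobase. By mean FPKM in 5-week ntg libraries, mt-Atp8 (79266 ± 17263) and mt-Nd4l (31952 ± 6233) stood above mt-Atp6, and mt-Nd5 (1949 ± 66.6) was below mt-Nd3 (2690 ± 714).

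Nuclear copies of mitochondrial DNA can take reads from some members, so these were searched in the GENCODE transcripts with windows of 50 bases. For 5 messengers (mt-Co2, mt-Atp6, mt-Co3, mt-Nd3 and mt-Nd4l) over 90% of windows occurred in another transcript, and for mt-Nd4 and mt-Co1 62.2% and 51.1% did. mt-Nd2 and mt-Nd5 shared 8.19% and 7.61%, and mt-Atp8, mt-Cytb, mt-Nd1 and mt-Nd6 shared none. No transfer RNA shared a window, nor did mt-Rnr1, and mt-Rnr2 shared 1.04% with Gm20594, which is in the authors' annotation. Copies outside annotated transcripts were not searched, so that a gene without a shared window may still have a copy. mt-Atp8, for example, lies between mt-Co2 and mt-Atp6, which shared 100% and 99.5%. The counts of mt-Co2, mt-Atp6, mt-Co3, mt-Nd3 and mt-Nd4l are uncertain to the extent that reads were split with such copies. mt-Cytb, mt-Nd1, mt-Atp8 and mt-Nd6, which shared no window with an annotated transcript, were called lower in 5-week Mfn2AA hearts in both comparisons. The mt-Nd6 calls were lost under 9 of 16 alternatives against Mfn2wt and 3 of 14 against tetoff. The mt-Cytb call against tetoff was lost without 5wk_tetoff_10289-3. The part of nuclear copies in the results was not tested.

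Among the transfer RNAs, mt-Tr and mt-Ts1 set the libraries prepared again in the P1 batch apart from all others. mt-Tr was counted at 26.7, 23.4 and 29.5 CPM in the P21 repeats and at 20.9, 12.5, 38.6 and 52.6 CPM in the 5-week libraries of that batch. The other 56 libraries held at most 10.6 CPM. mt-Ts1 was counted at 0.867 to 1.44 CPM in those 7 libraries and at no less than 4.6 CPM in the other 56. The P1 libraries of the same batch were on the side of the other libraries in both genes.

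On the same RNA the difference was 3.63 ± 0.17 (P21) and 3.01 ± 0.24 (5 weeks) on the log2 scale for mt-Tr, and −5.14 ± 0.23 and −4.87 ± 0.24 for mt-Ts1, each called by edgeR. Of 12985 genes at 1 CPM or more, 11 were higher and 15 lower in all 7 libraries than in all 56 others, and among nuclear genes the log2 ratio of medians did not pass 1.06 upward or −0.86 downward. At P21 the deposited FPKM did not show differences of this size. Mean mt-Tr was 10875 ± 5970 FPKM (SD, n = 3) in the P21 repeats and 9141 ± 3871 (SD, n = 6) in the P21 libraries of their own batch. Mean mt-Ts1 was 147250 ± 21862 and 286690 ± 174300, lower in the repeats as in the counts. The 2 deposited tables therefore differ in the size of these differences at P21, and the cause was not tested. FPKM values of the 5-week libraries are not given here for these genes.

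**Figure D5:**
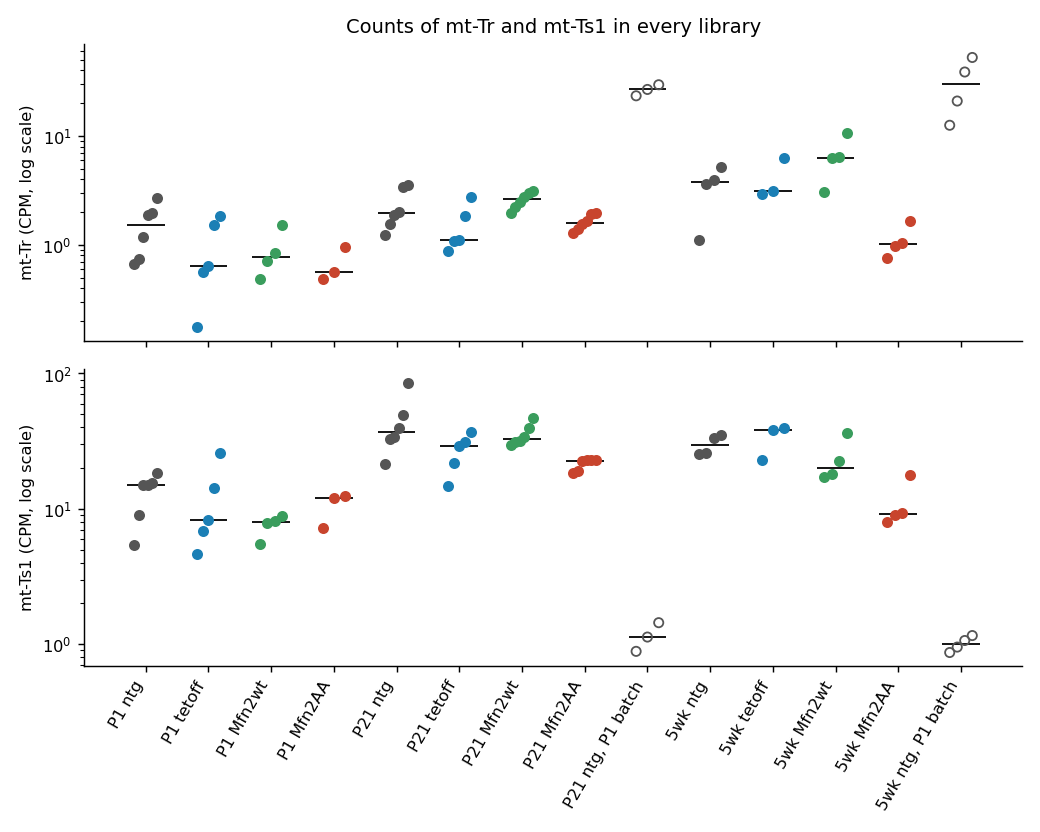
CPM of mt-Tr (upper panel) and mt-Ts1 (lower panel), both on log axes, in each of the 63 libraries by group (x axis), with a bar at the group median and open circles for the libraries prepared again in the P1 batch. All 7 open circles lie above every other library for mt-Tr and below every other library for mt-Ts1.

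The age comparisons of these genes rest on those libraries. Within the P1 batch mt-Tr was higher at P21 than at P1 by 4.13 ± 0.38 and mt-Ts1 lower by −3.47 ± 0.37, whereas with each age in its own batch mt-Tr gave 0.61, which did not pass, and mt-Ts1 was higher by 1.74. Of the other transfer RNAs, mt-Te (1.04 ± 0.33), mt-Tq (1.23 ± 0.48), the second mt-Tq entry (1.81 ± 0.50) and mt-Ty (1.01 ± 0.36) were higher and mt-Tl1 (−2.84 ± 0.90) lower at P21 within the P1 batch, where 29% of all genes were called higher. With mt-Tr, 5 of 17 transfer RNAs tested were called higher, near that share. In the ages' own batches mt-Te gave 0.03, mt-Tq 0.65, the second mt-Tq entry −0.31 and mt-Ty −0.07, none of which passed, and mt-Tl1 was lower by −3.27. From P21 to 5 weeks mt-Te was lower by −1.58 in the P1 batch and higher by 1.31 across the ages' own batches.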

How the data were processed

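The authors deposited whole-number counts per gene and FPKM values per gene. TopHat2 2.0.10, Bowtie2, HTSeq, Cufflinks 2.1 and mm10 are named, without roles, per the submitters' processing notes. Libraries were poly(A)-selected, single-end and not strand-specific, per the labels' protocols. Counts of 63 libraries were tested as deposited with edgeR 4.0.16 in R 4.3.3 (TMM, filterByExpr, quasi-likelihood test), adjusted over all genes tested and called at an adjusted p under 0.05. Genotypes were compared with the 4 groups of an age in 1 fit, ages within the P1 batch, and batches on the same RNA with the heart as a block. SE is the absolute log2 difference over the square root of F. Alternatives were DESeq2 1.42.0, RLE scaling, scaling without mt- genes and Rn45s, no filter on low counts, each comparison alone, and leaving out each library. Others were limma 3.58.1 on log2(FPKM + 1) or log2(FPKM + 0.1) with a mean of at least 1 FPKM in a group. Age comparisons were also run with each age in its own batch and with batch as a term. Batch comparisons had only DESeq2, no block and leaving out each heart.

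The members and the nuclear and marker lists were chosen with earlier results of these data known. All 13 messengers and both ribosomal RNAs are named, with the 4 transfer RNAs of greatest mean CPM and those called. Of each nuclear list up to 4 called and 2 uncalled genes could be named. Paired libraries shared total RNA by the study's design, and the correlation of same-heart deviations was 0.256 to 0.592 over all 6 hearts. No 2 libraries of a group agreed within sampling noise. Scripts were tested on simulated counts. Total counts limit precision, and CPM of a few counts carry counting error. Sequences and lengths came from GENCODE vM21 transcripts on GRCm38, and all 37 lengths equalled the authors' annotation.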

Additional observations from a re-analysis of the deposited data

Results flagged for a closer look

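Libraries that lay far from the others of their group by Dixon's ratio were found in 32 of 242 sets of a measure and a group, where chance gives about 1 in 20. Most came from few libraries. Library P1_ntg_10582-4 was highest for mt-Rnr1 (1696 CPM), mt-Nd2 (3599), mt-Atp8 (1707), mt-Atp6 (4109), mt-Nd4l (2108), mt-Nd5 (3938), mt-Nd6 (1956), mt-Cytb (4830), mt-Te (45.3), mt-Tm (12.7) and mt-Tl1 (76.4). Library 5wk_Mfn2AA_10287-8 was highest for the share of both ribosomal RNAs (1.44%), mt-Rnr2 (14164 CPM), mt-Atp6 (8063), mt-Nd4 (4407), mt-Nd5 (2301), mt-Nd6 (1525), mt-Cytb (4849), mt-Ts1 (17.9) and mt-Tm (6.79). Library P1_Mfn2wt_10546-9 was highest for mt-Rnr1 (776 CPM), mt-Atp8 (418), mt-Co3 (978) and mt-Cytb (1961).

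Library 5wk_Mfn2wt_15926-4, with the most Rn45s, was highest for mt-Tm (282 CPM) and mt-Tl1 (60.3). Single values stood apart for mt-Co1 in P21_ntg_10547-2 (11018 CPM, lowest) and 5wk_Mfn2AA_10289-8 (9229, highest), for mt-Nd1 in 5wk_ntg_15928-7 (4672, lowest), for mt-Nd6 in P21_Mfn2AA_10534-1 (373, lowest) and for mt-Tm in P21_ntg_10547-5 (5.14, highest). The repeat of 5wk_ntg_15928-7 was lowest for the ribosomal RNA share (0.728%).

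The Mfn2AA minus Mfn2wt difference changed between P21 and 5 weeks, by an edgeR interaction term, for mt-Atp6 (−1.51), mt-Co1 (−0.82), mt-Rnr1 (−2.12), mt-Rnr2 (−2.80), mt-Tc (−1.56), mt-Tm (−4.17), the second mt-Tq entry (−3.20) and mt-Tr (−1.83). Of all genes, 18.3% were called lower in this term. All 8 calls were lost without both Mfn2wt libraries rich in Rn45s, and that of mt-Atp6 under 8 of 26 alternatives, DESeq2 among them. Batch and age cannot be told apart in these values.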

How the results depend on the processing

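The calls of all 13 messengers in 5-week Mfn2AA against Mfn2wt and of 10 at P21 were stable in part: 8 of 13 and 8 of 10 were called under every alternative. Leaving out both 5-week Mfn2wt libraries with over 15% Rn45s, chosen after seeing the data, gave 8 calls at 5 weeks and 0 in the change from P21 to 5 weeks, where DESeq2 and limma with either pseudocount gave 1. P21 tetoff against ntg went from 1 call to 0 under both limma fits and with only the 2 groups compared. In ntg hearts, P21 against P1 gave 3 calls under DESeq2 and 2 under limma, and 5 weeks against P21 gave 2 with only the 2 groups compared. With each age in its own batch, 5 weeks gave 6 calls against P21 and 11 against P1, and the median of messengers at 5 weeks against P21 became 0.80. Without each library in turn the counts ran from 12 to 13 (5-week Mfn2AA against Mfn2wt), 8 to 13 (against tetoff), 8 to 10 (P21 Mfn2AA against Mfn2wt), 0 to 6 (P21 tetoff against ntg), 0 to 1 (P1 Mfn2wt against ntg), 2 to 11 (P21 against P1), 2 to 8 (5 weeks against P1), 1 to 13 (P21 batches), 8 to 12 (5-week batches) and 1 to 9 (change from P21 to 5 weeks). The single call without P1_ntg_10546-4 was in Mfn2wt against ntg. The share of all genes called is not given for the fits without a library, so these counts cannot be read against it.

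Signs turned, P21 against P1, for mt-Ts1 under limma (0.89) and in own batches (1.74), and in own batches for the second mt-Tq entry (−0.31), mt-Ty (−0.073), Slirp (−0.13) and Uqcrb (−0.087). At 5 weeks against P21 in own batches they turned for mt-Nd6 (0.70), mt-Te (1.31), Grsf1 (−0.014), Uqcrq (0.032) and Cox6a2 (0.81), and against P1 for mt-Ts1 (0.87 under limma, 1.21) and Uqcrb (−0.30). The cause was not tested.

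Without the replicate block the P21 batch comparison gave 0 calls, and that of 5 weeks 6. P1 Mfn2AA and tetoff, and P21 Mfn2wt and ntg, share 2 title numbers, and with these as a replicate block both comparisons gave 0 calls as before, while the median of P1 Mfn2AA against tetoff moved from −0.55 to −0.038. Deviations of same-numbered libraries correlated at −0.03 and 0.23 at P1 and at 0.27 at P21, over too few numbers to tell whether they pair the libraries. The other groups compared, 5-week Mfn2AA and tetoff among them, share 1 title number or none, and no block was fitted. Transfer RNAs of a few counts are limited by depth.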
